A study of Homo sapiens with 10 samples.

Results

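The 10 genes described here are the human Notch receptors NOTCH1, NOTCH2, NOTCH3 and NOTCH4, the canonical ligands JAG1, JAG2, DLL1, DLL3 and DLL4, and HES1, a target gene of the pathway. They were taken by gene name from a table of 64940 gene entries, of which 16687 had a mean of at least 1 TPM, a transcript share scaled to gene length and library total, over the 4 RNA-seq libraries and were tested. Of the 10 members, 8 passed this filter, and NOTCH4 and DLL4 did not. The name NOTCH4 also stood on 6 further entries, and the name DLL1 on 1, all of them listed at 0 in every library, and the entry with values was used for each.

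The libraries come from H9, a human embryonic stem cell (hESC) line, and form 2 groups of 2. The oeDAZL libraries are labelled as primordial germ cell-like cells (hPGCLCs) that overexpress the germ cell RNA-binding protein DAZL, which the study delivered by lentivirus during differentiation with the growth factors BMP4 and BMP8a. The control libraries are labelled as wild type, spontaneously differentiated (SD) cells, whereas the series' design text calls both groups PGCLCs, so the DAZL transgene and a difference in culture cannot be told apart here. The comparison addresses which mRNAs differ when DAZL is overexpressed, and the other assays of the study were not analysed here.

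In Notch signaling, a ligand on one cell pulls on a receptor on its neighbor, the receptor is cut by an ADAM protease and then by γ-secretase, and its intracellular domain enters the nucleus. There it joins the DNA-binding protein RBPJ and a Mastermind coactivator and switches on target genes, among them HES1, a repressor that also binds its own promoter. The mRNAs of such genes can also carry sites for miRNAs, the class of small RNA that the study is about.

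Regulatory sequences of 2 kinds are shown first, because one bears on HES1 as a target of RBPJ and the other on the receptors and ligands as possible miRNA targets. In the RefSeq promoter table (GRCh38.p14, 250 bases before to 50 after each start site), the HES1 promoter held 2 matches to the RBPJ core TGGGAA on its coding strand, starting at -84 and -70 from the start site and so 14 bases apart. They lie at chr3:194136059-194136088 on the plus strand, upstream of the HES1 gene, with the matches in capitals.
HES1 promoter: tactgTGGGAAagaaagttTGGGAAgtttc
HES4 promoter: tggggcgagtgTGGGAAagaatgcggag
HES4, a relative of HES1, had 1 match, at -76 from its start site on the minus strand of chromosome 1. The relatives HES2 and HES6 and the Notch target or feedback gene NRARP were also searched and held none. On either strand, 24.3% of 27305 promoters held at least 1 match and 3.81% held at least 2. Of the other members, NOTCH1, NOTCH2, NOTCH3, NOTCH4, JAG1, JAG2 and DLL4 had a promoter in the table and held none, which says only that these letters are not in the window. The N box CACNAG, the letters bound by HES repressors, matched 4 times in the HES1 promoter over both strands, while 38% of all promoters held at least 1 match and 8.85% held at least 2. It also matched 2 times in NOTCH1 and 1 time each in NOTCH2, NOTCH3, NOTCH4 and DLL4, but not in JAG1 or JAG2.

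The 3′ UTRs of the 10 members (GENCODE 44, the longest per gene) were searched for 8-base matches to miRNAs discussed in the study. These were let-7, miR-199a-5p, miR-199a-3p, miR-21-5p, miR-22-3p and miR-125b-5p. A match was the reverse complement of the seed, bases 2 to 8 of the miRNA, followed by an A. Shorter matches, to the seed alone, were not searched. miR-10b-5p, also discussed in the study, was not searched, so the count is for this set alone. Of the 10 members, NOTCH2 and JAG1 held a match, that is 2 of 10 members beside 18.2% of 19248 genes. The mature miRNAs (RefSeq, GRCh38.p14) are given with the seed, bases 2 to 8, in capitals, and the 30-base windows with the match in capitals.
hsa-miR-125b-5p: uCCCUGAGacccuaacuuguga
NOTCH2 3′ UTR: acagatggttgCTCAGGGAcaaggtgcctt
hsa-miR-21-5p: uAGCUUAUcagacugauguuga
JAG1 3′ UTR: ggagtattctaATAAGCTAgttgaatactt
hsa-let-7a-5p: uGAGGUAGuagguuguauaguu
The NOTCH2 match lies at chr1:119911789-119911796 on the minus strand (hg38) and starts at base 3510 of a 3′ UTR of 3753 bases. The JAG1 match lies at chr20:10638257-10638264, also on the minus strand, and starts at base 1234 of 1814. Neither NOTCH3 nor HES1 held an 8-base match for any of these miRNAs. No member held one for let-7, whose seed is shown for that reason. A match is a description of the letters and no evidence that the miRNA acts there.

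DAZL itself, at 0 (control 1), 0.0333 (control 2), 102 (oeDAZL 1) and 101 TPM (oeDAZL 2), matched the labels. Read depth is unknown because TPM does not keep it, and precision is judged here from the spread between the 2 libraries of a group. Nothing in the labels says that they came from separate cultures, so P-values measure the spread between these libraries, which may be technical. Control replicate 1 stood apart: on the first principal component, which held 55.5% of the variance, it lay at -30.1 against -7.97 for control replicate 2 and 22.4 and 15.7 for the oeDAZL libraries. Of the markers examined, 7 of 10 primordial germ cell genes reached a mean of 1 TPM, with DDX4 at 0, their sum being 104 to 113 TPM in control and 116 to 117 TPM in oeDAZL cells. Within it, PDPN stood at 32.9, 49.7, 58.5 and 52.5 TPM, whereas 6 of the 7 tested genes had log2 fold changes below 0, with a median of -0.12. All 8 amnion and trophoblast genes reached a mean of 1 TPM, with sums of 4167 to 4282 TPM in control and 4383 to 4503 TPM in oeDAZL cells. Within these sums, IGFBP3 stood at 1711, 1816, 2143 and 1978 TPM, whereas 4 of the 8 genes had log2 fold changes below 0. Of 6 pluripotency genes 4 reached a mean of 1 TPM, with sums of 66.4 to 70 TPM in control and 76.2 to 79.9 TPM in oeDAZL cells. Among them, POU5F1 stood at 13.6, 10.6, 22.4 and 20.4 TPM (log2 fold change 0.79, adjusted P = 0.0896). Of the 4 tested pluripotency genes, 2 had log2 fold changes below 0. As the libraries are bulk samples, fewer cells that express a gene and less RNA per cell cannot be told apart.

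Among the receptors, NOTCH3 was the most abundant and differed most between the groups. NOTCH3 and NOTCH2 were lower in the oeDAZL libraries, NOTCH1 was at nearly the same level in all 4, and NOTCH4 was close to absent. None of them changed by the study's threshold, a fold change of at least 2 with P at most 0.05.

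NOTCH3 (chr19:15159038-15200995, minus strand, hg38), a receptor best known from mural cells of blood vessels, stood at 92.7 and 80.4 TPM in control and at 61.0 and 63.5 TPM in oeDAZL cells. Both oeDAZL libraries lay below both controls, and control replicate 1 was the highest. Its log2 fold change was -0.47 ± 0.08 (SE, n = 2 per group), a difference in mean TPM of -28.1%, with adjusted P = 0.0896. Its unadjusted limma P was under 0.05 and stayed so when any library was left out, with adjusted P-values of 0.183 without control replicate 1, 0.0369 without control replicate 2, 0.376 without oeDAZL replicate 1 and 0.218 without oeDAZL replicate 2. A correction for the GC content and length of the transcripts, which was chosen once the data had been seen, brought the NOTCH3 log2 fold change to -0.26 (adjusted P = 0.177). Markers of mural and smooth muscle cells were also measured, and of the 8 listed, 6 reached a mean of 1 TPM, with sums of 1412 to 1822 TPM in control and 1496 to 1564 TPM in oeDAZL cells. Of these, ACTA2, a smooth muscle actin, stood at 308, 343, 210 and 221 TPM and PDGFRB, a pericyte receptor, at 48.8, 52.7, 44.5 and 40.3 TPM in control 1, control 2, oeDAZL 1 and oeDAZL 2. TAGLN, the most abundant of the list, stood at 899, 1208, 1090 and 1045 TPM and its groups overlapped. Of the 6 tested markers, 3 had log2 fold changes below 0, while TAGLN (0.03), RGS5 (0.09) and CNN1 (0.21) lay above it. The part of such cells in the NOTCH3 difference was not tested. The markers named here were picked for mention after their values were seen.

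NOTCH2 (chr1:119911553-120100779, minus strand) stood at 67.7 and 69.1 TPM in control and at 57.9 and 58.5 TPM in oeDAZL cells. The groups did not overlap and each was tight, but the difference was small, with a log2 fold change of -0.23 ± 0.06, a difference in mean TPM of -15%. The unadjusted limma P was under 0.05 (adjusted P = 0.137). It was no longer so without oeDAZL replicate 1 (adjusted P = 0.562) or without oeDAZL replicate 2 (adjusted P = 0.406), nor after median-of-ratios scaling, where the NOTCH2 log2 fold change was -0.13 (adjusted P = 0.316), nor with the GC and length correction, where it was -0.10 (adjusted P = 0.447). NOTCH2 has near-identical copies in the genome, so its value is uncertain: its partial copy NOTCH2NLA was listed at 5.66, 9.89, 9.25 and 7.17 TPM, with overlapping groups, and only uniquely mapped reads had been kept.

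NOTCH1 (chr9:136494433-136546048, minus strand) was measured at 24.5 and 25.8 TPM in control and at 24.7 and 24.6 TPM in oeDAZL cells. The 4 libraries lay within a narrow band in which the groups overlapped. The log2 fold change was -0.03, with a 95% interval of -0.22 to 0.17 and adjusted P = 0.872, and its sign turned with the scaling (0.07 after median-of-ratios scaling). NOTCH4 (chr6:32194843-32224067, minus strand), a receptor known from endothelium, stood at 0.230, 0.122, 0.165 and 0.134 TPM and was not tested. GPSM3, at 2.72 to 5.40 TPM, overlaps NOTCH4 on the same strand, so their reads could be split between them. Of 9 endothelial markers 3 reached a mean of 1 TPM, with sums of 11.5 to 15 TPM in control and 11.9 to 12.9 TPM in oeDAZL cells, and PECAM1 and EMCN were listed at 0 in all libraries.

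**Figure D1:**
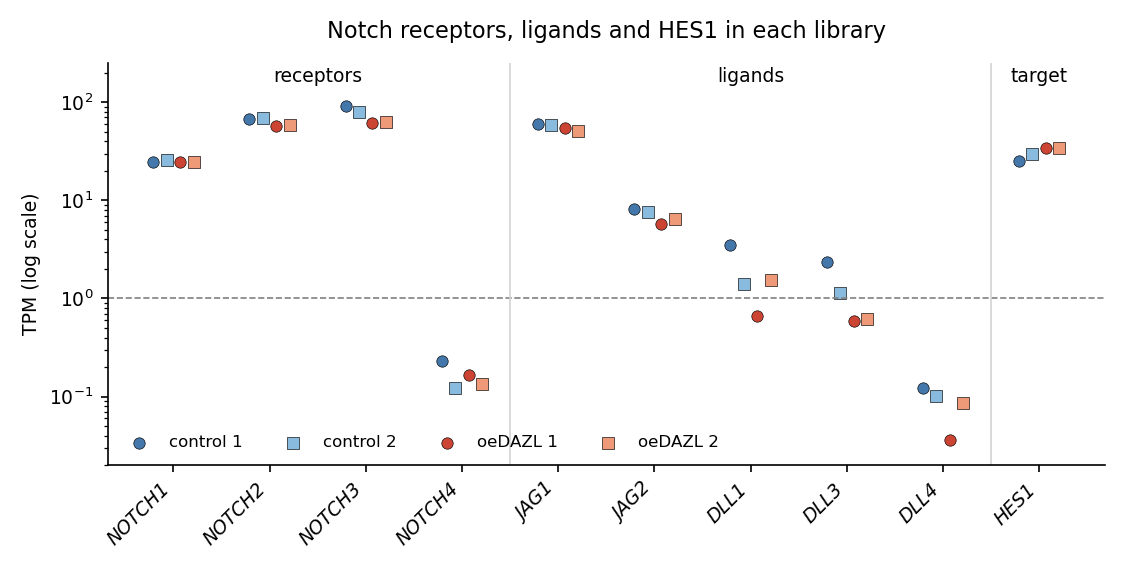
TPM of each member in the 4 libraries on a log axis, 1 symbol per library, with the dashed line at 1 TPM, the filter on the mean. NOTCH3, NOTCH2 and JAG1 head the scale, NOTCH4 and DLL4 lie below the line, and HES1 is the 1 member whose oeDAZL libraries both lie above the controls.

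NOTCH3 made up less of the receptor total in oeDAZL cells. Summed over the 4 receptors, TPM was 185 and 175 in control and 144 and 147 in oeDAZL cells, a mean of 180 ± 6.79 (SD, n = 2) against 145 ± 2.05. The sum differed by -19.5%, more than the spread between libraries, although an exact permutation test of 2 against 2 cannot give a two-sided p below 0.333. NOTCH3 made up 50.1% and 45.8% of the receptor sum in control and 42.5% and 43.3% in oeDAZL cells, while NOTCH1 made up 13.2% and 14.7% against 17.2% and 16.7%. The ratio of NOTCH3 to NOTCH1 TPM, which no scaling of a library can alter, was 3.79 and 3.12 in control and 2.47 and 2.59 in oeDAZL cells, with no overlap.

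Among the ligands, JAG1 carried most of the transcripts in both groups, and JAG1, JAG2 and DLL1 had lower means in oeDAZL cells at unadjusted limma P-values above 0.05. DLL3 was tested only because of its control values, and its difference is given as a description.

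JAG1 (chr20:10637684-10673999, minus strand) stood at 59.4 and 58.7 TPM in control and at 54.8 and 50.6 TPM in oeDAZL cells. The groups did not overlap, and the log2 fold change of -0.16 had a 95% interval of -0.33 to 0.01, with adjusted P = 0.263. JAG2 (chr14:105140982-105168824, minus strand) stood at 8.17 and 7.56 TPM in control and at 5.77 and 6.42 TPM in oeDAZL cells. Its oeDAZL libraries again lay below both controls, with a log2 fold change of -0.32, a 95% interval of -0.65 to 0.00 and adjusted P = 0.252. Both unadjusted P-values lay just above 0.05. That of JAG2 passed below it with a pseudocount of 0.1 (adjusted P = 0.247) and without the trend in the fit (adjusted P = 0.25), and that of JAG1 when no filter was applied (adjusted P = 0.404). Other scalings made both differences smaller. JAG1 was at -0.06 after median-of-ratios scaling (adjusted P = 0.657) and at -0.06 with the GC and length correction (adjusted P = 0.686). JAG2 was at -0.19 after quantile normalization (adjusted P = 0.454) and at -0.13 with the GC and length correction (adjusted P = 0.598).

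**Figure D2:**
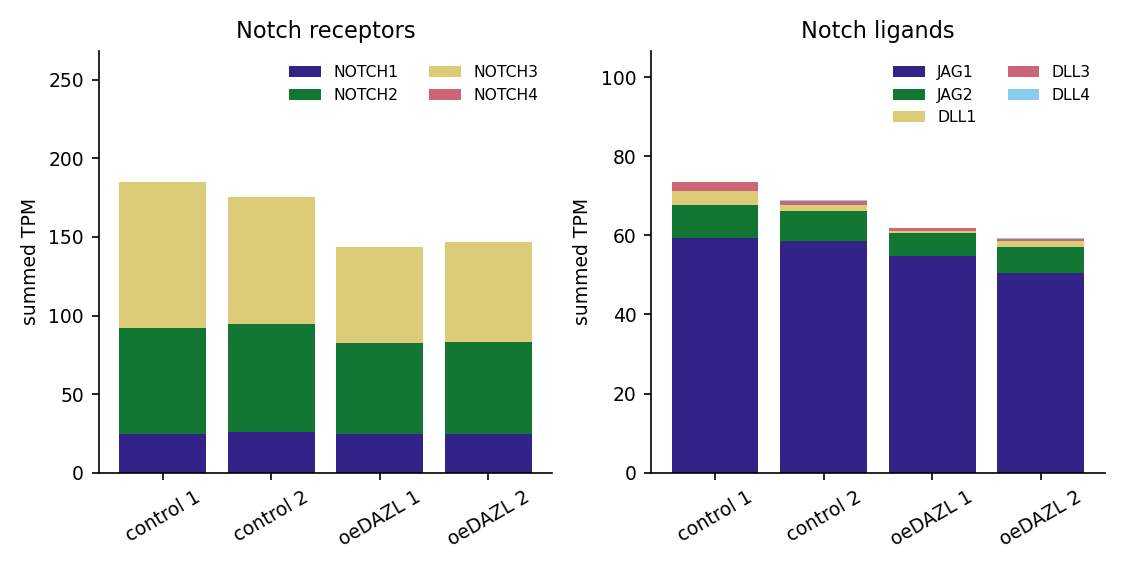
Stacked bars of summed TPM for the 4 receptors and the 5 ligands in each library, on a linear axis from 0. NOTCH3 loses most of the receptor height from control to oeDAZL cells while NOTCH1 keeps its height, and JAG1 fills most of every ligand bar.

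DLL1 (chr6:170282206-170306565, minus strand), an activating ligand of the delta type, stood at 3.53 and 1.42 TPM in control and at 0.664 and 1.53 TPM in oeDAZL cells. The groups overlapped, control replicate 1 alone was high, and the log2 fold change of -0.69 had a 95% interval of -1.60 to 0.22 (adjusted P = 0.352). Without control replicate 1 it was -0.24, and without control replicate 2 it was -1.14 (adjusted P = 0.119), past the study's threshold. FAM120B, at 9.95 to 11.4 TPM, overlaps DLL1 on the other strand, and whether the counting used strand is not given in the sources used here, so reads of the pair may not have been told apart.

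DLL3 (chr19:39498895-39508481, plus strand), which differs from the other delta ligands in acting on receptors of its own cell, stood at 2.35 and 1.13 TPM in control and at 0.583 and 0.618 TPM in oeDAZL cells. It passed the filter only through the control libraries, so that it had to be lower in the others. The log2 fold change was -0.74 ± 0.30, with the unadjusted limma P just under 0.05 (adjusted P = 0.242). Without control replicate 1, DLL3 gave -0.41 (adjusted P = 0.546), and without oeDAZL replicate 1 (adjusted P = 0.626) or 2 (adjusted P = 0.482) its unadjusted P was also above 0.05. It was above 0.05 in 5 further alternatives: median-of-ratios scaling (adjusted P = 0.27), quantile normalization (adjusted P = 0.362), no filter (adjusted P = 0.433), the GC and length correction (adjusted P = 0.348) and the replicate number as a block (adjusted P = 0.302). Without control replicate 2 it gave -1.07 (adjusted P = 0.0946), past the study's threshold. DLL4 (chr15:40929340-40939073, plus strand), the ligand of sprouting endothelium, was listed at 0.121, 0.102, 0.0357 and 0.0855 TPM and was not tested.

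Control replicate 1, highest for DLL1 and DLL3, was also the highest library for some markers of other lineages, of which 3 were picked after their values were seen. PAX6, a neural regulator, stood at 3.83, 1.14, 0.0967 and 0.558 TPM, TBXT, a mesoderm regulator, at 2.49, 1.25, 0.319 and 0.546 TPM, and MSGN1, a gene of presomitic mesoderm, at 1.70, 0.745, 0 and 0.186 TPM. Of all listed genes, 2 of 8 neural markers reached a mean of 1 TPM, with sums of 184 to 231 TPM in control and 226 to 249 TPM in oeDAZL cells that were mostly TUBB3. Of 6 presomitic mesoderm markers 3 did so, with sums of 9.49 to 10.6 and 8.21 to 8.30 TPM, and RIPPLY2 was at 0. Of the markers above 0 in some library, control replicate 1 was the highest for 3 of 7 neural and 4 of 5 presomitic mesoderm genes. In other lists it was the highest for 5 of 8 amnion and trophoblast, 4 of 9 primordial germ cell and 3 of 6 pluripotency genes. It was so for 2 of 7 endothelial and 1 of 8 mural and smooth muscle genes. Of the neural and presomitic mesoderm genes, it was the lowest for 3 and 1. The neural genes NEUROG1 and NEUROG2 count there only through ties at 0 with other libraries. The others were TUBB3 at 179, 229, 249 and 225 TPM and TCF15 at 3.77, 6.03, 6.30 and 6.49 TPM. The part of such cells in the DLL1 and DLL3 values was not tested.

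**Figure D3:**
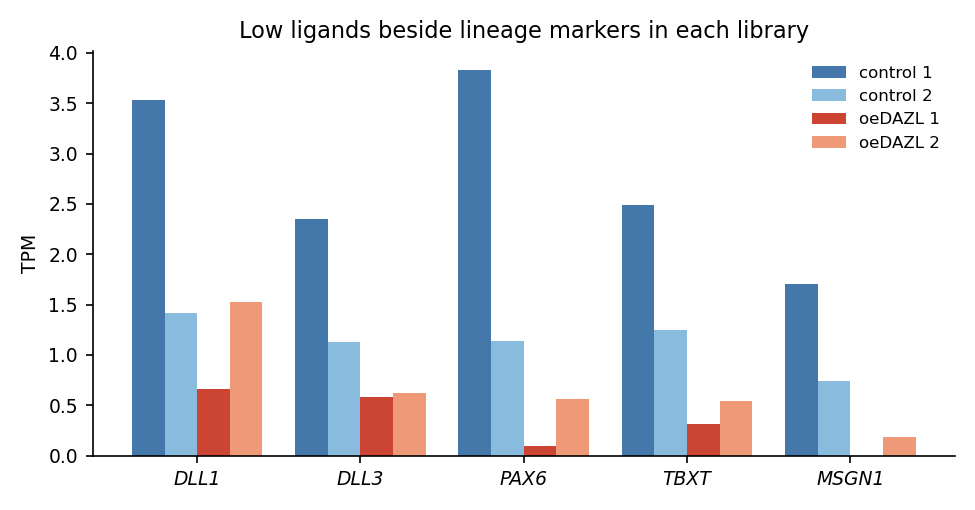
TPM in each library, as bars from 0, for the ligands DLL1 and DLL3 and for the lineage markers PAX6, TBXT and MSGN1. Control replicate 1 has the highest bar for all 5 genes, and DLL1 is the 1 gene whose oeDAZL replicate 2, at 1.53 TPM, exceeds control replicate 2.

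Over the 5 ligands, summed TPM was 73.5 and 68.9 in control and 61.8 and 59.3 in oeDAZL cells, 71.2 ± 3.31 against 60.6 ± 1.79 (SD, n = 2). JAG1 made up 80.7% and 85.2% of that sum in control and 88.6% and 85.4% in oeDAZL cells, with JAG2 at 9.33% to 11.1% in all 4 libraries. The ligand sum differed by -15%, with no overlap between groups, and by -8.72% after median-of-ratios scaling.

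HES1, the target gene, was higher in oeDAZL cells. HES1 (chr3:194136148-194138732, plus strand) stood at 25.4 and 29.6 TPM in control and at 33.9 and 34.1 TPM in oeDAZL cells. The oeDAZL libraries lay close together above both controls, and control replicate 1 was the lowest. The log2 fold change was 0.30 ± 0.09 (95% interval 0.07 to 0.53), 23.5% higher in mean TPM, with an unadjusted limma P under 0.05 and adjusted P = 0.176. HES1 was higher under every alternative, with log2 fold changes between 0.19 and 0.41. Leaving out a library took the unadjusted P past 0.05 in 3 cases: without control replicate 1 (0.19, adjusted P = 0.343), without oeDAZL replicate 1 (0.30, adjusted P = 0.564) and without oeDAZL replicate 2 (0.29, adjusted P = 0.446). Within each library, the ratio of HES1 to NOTCH3 TPM was 0.274 and 0.368 in control and 0.555 and 0.536 in oeDAZL cells.

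**Figure D4:**
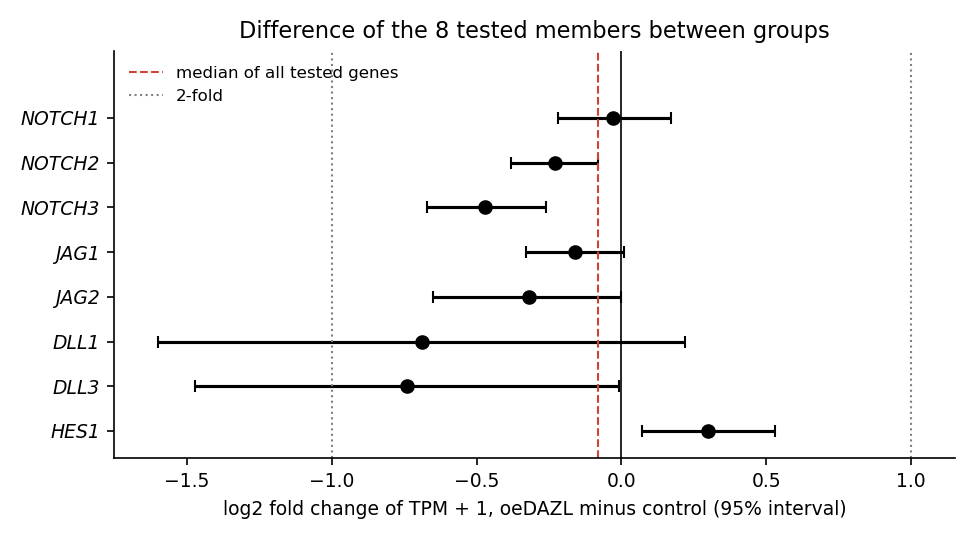
log2 fold change of TPM + 1, oeDAZL minus control, for the 8 tested members, with 95% intervals from limma. The dashed line marks the median of all tested genes, -0.08, and the dotted lines a 2-fold difference. The intervals of NOTCH2, NOTCH3 and DLL3 lie below 0 and that of HES1 above it, and no point lies beyond a 2-fold difference.

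Across the table, 0.563% of tested genes met the study's threshold as lower in oeDAZL cells (94 genes) and 0.126% as higher (21 genes); of the members, 0 did in either direction, although 4 had an unadjusted limma P of at most 0.05. Quantile normalization changed the totals to 52 lower and 41 higher. The threshold was applied here to limma fold changes of log2(TPM + 1), so these totals are not those of the study's own DESeq2 test. At P of at most 0.05 whatever the fold, NOTCH2 and NOTCH3 were lower, 2 of the 7 tested members other than DLL3, beside 15.2% of all tested genes, and HES1 was higher beside 5.02%. DLL3 also met this rule, but its passing the filter fixed its direction. No member had an adjusted P under 0.05, as 0.0599% of tested genes did, and the lowest, of NOTCH3, was 0.0896. The groups did not overlap with oeDAZL lower for NOTCH2, NOTCH3, JAG1 and JAG2, 4 of these 7 members, beside 38.4% of tested genes, and with oeDAZL higher for HES1 beside 16% of them. The median log2 fold change was -0.28 over the 8 tested members, -0.23 without DLL3 and -0.08 over all tested genes, of which 65.3% lay below 0. The lean of the table depended on the scaling, since the median of all tested genes was 0.01 after median-of-ratios scaling or quantile normalization and 0.02 with the GC and length correction.

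The order of levels was the same in both groups, with NOTCH3 first, followed by NOTCH2, JAG1, HES1, NOTCH1, JAG2, DLL1, DLL3, NOTCH4 and DLL4. In control cells HES1 and NOTCH1 overlapped between libraries, as did DLL1 and DLL3, so these neighbors did not differ beyond their spread. In oeDAZL cells HES1, at a mean of 34 TPM, stood clear of NOTCH1 at 24.6 TPM. By mean TPM, NOTCH3 lay within the top 13.6% of tested genes, NOTCH2 within 16.1%, JAG1 within 18.5%, HES1 within 32.9% and NOTCH1 within 38.7%.

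The other genes of the pathway were read from 8 lists of 91 genes, of which 79 were tested. Of these, 16 were lower and 4 higher at P of at most 0.05, where 15.2% and 5.02% of all tested genes were, none met the study's threshold and none had an adjusted P under 0.05. Their median log2 fold change, -0.08, equaled that of all tested genes. This split depended on the scaling, as did that of the whole table. Median-of-ratios scaling gave 6 lower and 9 higher, beside 8.2% and 11.2% of all tested genes, and the GC and length correction gave 4 lower and 12 higher, beside 7.35% and 10.8%. The counts of the single lists that follow, most of them of 1 to 3 genes, are to be read against the same shares of all tested genes.

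Of the other HES and HEY repressors, 5 of 10 were tested, 1 was lower and 1 higher. HEY1, a relative of HES1 that is also switched on by Notch, was the most abundant at 199 and 175 TPM in control and 154 and 173 TPM in oeDAZL cells, with an adjusted P of 0.293. HES1 and HEY1 thus lay on opposite sides of 0 in log2 fold change (0.30 and -0.19), and the ratio of HES1 to HEY1 TPM was 0.128 and 0.169 in control and 0.22 and 0.197 in oeDAZL cells. HES2 stood at 2.29, 2.88, 4.08 and 4 TPM (log2 fold change 0.50, adjusted P = 0.21). HES6, which opposes HES1 in neural cells, stood at 7.66, 7.70, 6.22 and 5.30 TPM (-0.36, adjusted P = 0.225). HES4, the other gene with an RBPJ match shown above, stood at 38.2, 32.4, 38.1 and 35.7 TPM, with a log2 fold change of 0.07 and an interval of -0.17 to 0.31.

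Among 14 other target and feedback genes, 11 were tested, 2 were higher and 1 was lower. SOX9, a transcription factor of progenitor cells and cartilage, stood at 24.9 and 30.4 TPM in control and at 47.4 and 43.8 TPM in oeDAZL cells. Its log2 fold change of 0.71 ± 0.11 (adjusted P = 0.0896) was the largest of all 79, and its P stayed under 0.05 in all 13 alternatives. MYC, a growth regulator, stood at 28.3, 33.8, 37.0 and 37.4 TPM (0.26, adjusted P = 0.224). EFNB2, an arterial ephrin, stood at 126, 118, 97.9 and 106 TPM (-0.26, adjusted P = 0.137). CCND1, cyclin D1, had the highest mean TPM, with 82.0, 154, 165 and 148 TPM and only control replicate 1 apart from the rest.

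The pattern of HES1 over the 4 libraries was most like those of MYC (Pearson r = 0.992), HES2 (0.989) and SOX9 (0.973) among the 86 other tested members and pathway genes. These values describe 4 libraries that share the group difference, and 2.46% of the other tested genes had an r with HES1 at least as high as that of SOX9.

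The machinery that makes, cuts and reads the receptors gave small differences. Of 8 tested genes for receptor glycosylation and maturation 1 was lower: POGLUT3, listed under the older symbol KDELC2, an enzyme that adds glucose to the receptor's EGF repeats, at 53.0, 46.9, 37.7 and 38.2 TPM (-0.38, adjusted P = 0.105). FURIN, the protease that matures the receptor, stood at 81.5 to 88.8 TPM with overlapping groups. Of 8 tested genes of receptor cleavage 3 were lower, all by little. They were ADAM17 (-0.17, adjusted P = 0.231) and the γ-secretase subunits NCSTN (-0.14, adjusted P = 0.235) and APH1A (-0.14, adjusted P = 0.237), and after median-of-ratios scaling they were at -0.07, -0.04 and -0.04. The main Notch protease ADAM10 did not pass, at 58.3, 58.1, 61.2 and 61.8 TPM and a log2 fold change of 0.08. For the whole cleavage list, 3 lower and 0 higher genes became 0 and 2 after median-of-ratios scaling. They became 0 and 1 with the GC and length correction and 2 and 0 after quantile normalization.

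Of 9 tested genes for ligand ubiquitination and endocytosis, which give the ligand its pull, 2 were lower. MIB2, a ubiquitin ligase of Notch ligands, stood at 54.3, 56.4, 46.3 and 45 TPM (-0.27, adjusted P = 0.12). DNM1, a dynamin, stood at 42.9, 29.4, 22.8 and 25.3 TPM (-0.55, adjusted P = 0.176), again with control replicate 1 the highest. DNM2, the most abundant of the list, stood at 113 to 125 TPM with an adjusted P of 0.393.

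In the nucleus, 6 of 20 tested genes were lower and 0 higher, which became 1 and 1 after median-of-ratios scaling and 1 and 3 with the GC and length correction. RBPJ itself stood at 34.8, 39.4, 36.5 and 33.5 TPM with overlapping groups (-0.08, adjusted P = 0.653). The 3 lowest P-values belonged to the acetyltransferases KAT2A (-0.36, adjusted P = 0.149) and CREBBP (-0.32, adjusted P = 0.184) and to the corepressor CTBP1 (-0.17, adjusted P = 0.184), whose difference shrank to -0.01 with the GC and length correction. HDAC1, a histone deacetylase, was the most abundant at 118 to 130 TPM, with an adjusted P of 0.37. Of 11 tested genes for receptor turnover and sorting, DTX3, of the Deltex ubiquitin ligases, was lower at 43.4, 39.5, 30.3 and 32.0 TPM (-0.40, adjusted P = 0.0996). CCNC, the cyclin whose kinase marks the intracellular domain for decay, was higher at 82.3, 86.9, 104 and 97.7 TPM (0.25, adjusted P = 0.133).

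Of 7 tested non-canonical ligands, 1 was lower: EGFL7, a secreted protein that can block Notch, at 25.5, 25.9, 19 and 21 TPM (-0.35, adjusted P = 0.13). DLK1, from the imprinted DLK1-DIO3 locus, stood at 12.3, 3.15, 6.37 and 7.31 TPM, so that its 2 control libraries enclosed both oeDAZL libraries (adjusted P = 0.948). MFAP2, a microfibril protein, was the most abundant of the list at 135 to 166 TPM with overlapping groups. With the GC and length correction, the lower genes of these lists moved towards 0, with HES6 at -0.19, EFNB2 at -0.16, MIB2 at -0.09, KAT2A at -0.21, CREBBP at -0.14, DTX3 at -0.26 and EGFL7 at -0.18. Without control replicate 1, DNM1 was at -0.28 and MYC at 0.14, and without control replicate 2 they were at -0.81 and 0.39.

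**Figure D5:**
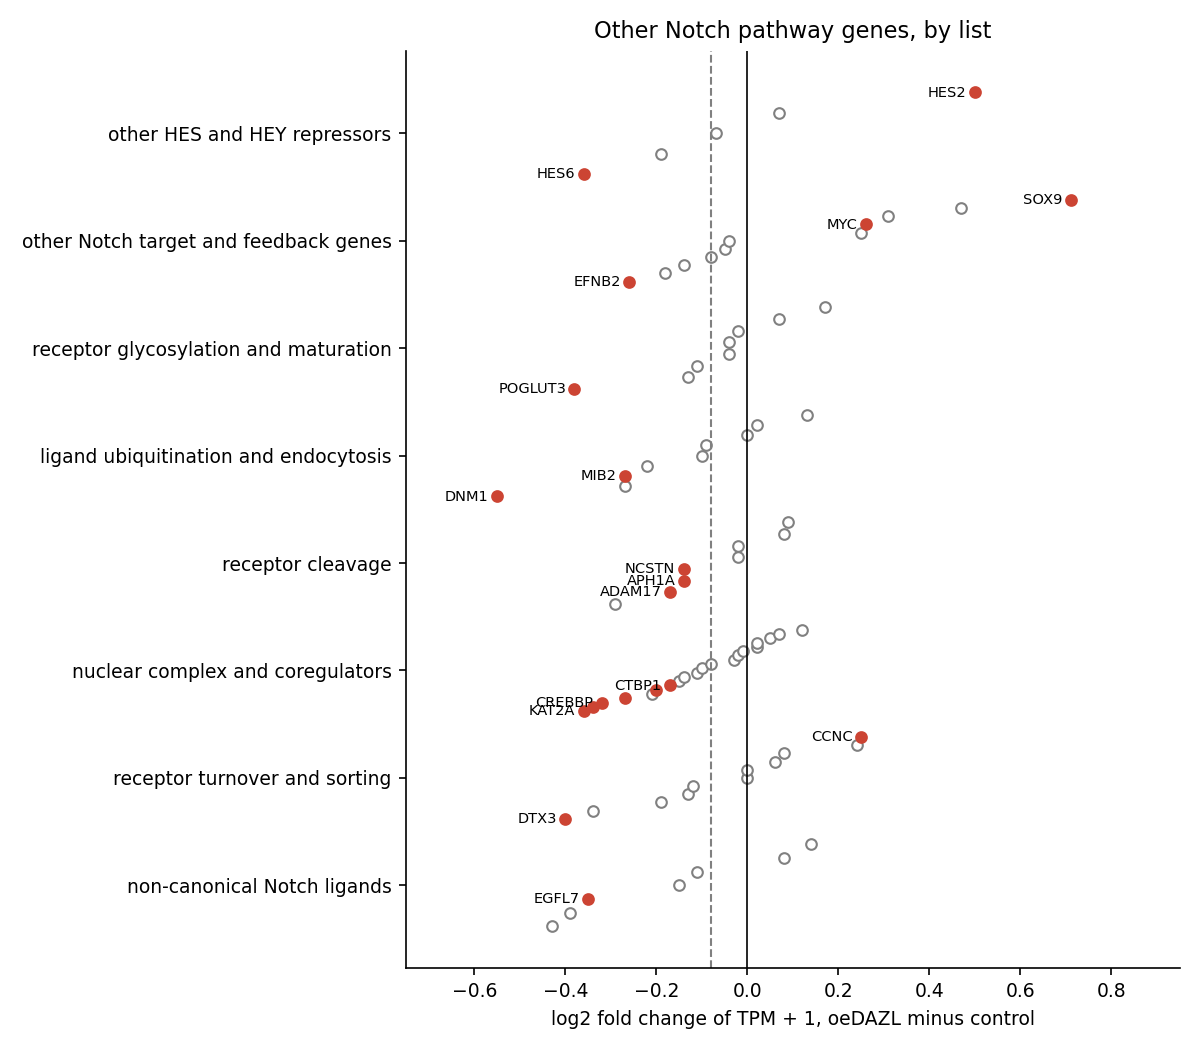
log2 fold change of TPM + 1, oeDAZL minus control, of the 79 tested pathway genes, 1 row per list, with points spread vertically for legibility. Filled points have unadjusted limma P of at most 0.05, those named in the text carry their name, and the dashed line marks the median of all tested genes at -0.08. SOX9 and HES2 lie farthest right and DNM1 farthest left.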

How the data were processed

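RNA-seq of 2 control and 2 oeDAZL libraries of H9-derived cells was used. The authors trimmed the reads, mapped them to hg38 with HISAT2 2.1.0, kept uniquely mapped reads, quantified them with StringTie 2.1.4 and deposited TPM per gene, with 1 column per library. The annotation release and strandedness are not given in the sources used here. The authors' own test was DESeq2 on read counts, which cannot be run on TPM. Of 65003 entries, 45 pseudoautosomal copies and 18 repeats were left out. Values were transformed to log2(TPM + 1), so fold changes of low genes are understated, and limma 3.58.1 (R 4.3.3) was run on the 16687 genes with mean TPM of at least 1 (eBayes with trend, no covariates, two-sided, Benjamini-Hochberg adjustment over all of them). The fit was run on simulated data with independent noise and changes larger than those of the members. That run cannot show how reliable the members' differences are. Pathway genes were named if P was at most 0.05 (at most the 3 lowest per list) or if they had the highest mean TPM of their list; all members were named, and other genes were named after their values were seen. The members and lists were chosen with earlier results of these data known. Alternatives changed the pseudocount, filter, scaling, trend, replicate block or libraries. The values of 2 listed genes are not reported here.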

Additional observations from a re-analysis of the deposited data

How the results depend on the processing

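HES1 stayed higher under all 13 alternatives and NOTCH3 stayed lower with P under 0.05 under all 13, although at -0.26 with the GC and length correction. The count of members meeting the study's threshold as lower was 1 (DLL3) with a pseudocount of 0.1 and 0 to 2 when a library was left out; none met it as higher. The count of members with P of at most 0.05 was 2 after median-of-ratios scaling, 2 with the GC and length correction and 1 to 5 when a library was left out. HES1 log2 fold changes ranged from 0.19 to 0.41 without 1 library. The members' median was -0.20 at a mean TPM of at least 5, which drops DLL1 and DLL3, -0.18 with median-of-ratios, -0.19 with quantile and -0.12 with GC and length correction. The receptor and ligand sums differed by -13.6% and -8.72% after median-of-ratios scaling. NOTCH1 turned to 0.07 (median-of-ratios), 0.06 (quantile), 0.18 (GC and length) and 0.01 (without control replicate 2), within a range of -0.06 to 0.01 when a library was left out. Where no cause is given by construction, the cause was not tested.

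Over all genes, calls lower and higher numbered 267 and 55 with a pseudocount of 0.1, 23 and 6 at a mean TPM of at least 5, 52 and 41 with quantile normalization and 57 and 33 with the GC and length correction; without a library they ranged from 85 to 235 and from 35 to 87. Genes with P of at most 0.05 numbered 1369 lower and 1873 higher after median-of-ratios scaling. The replicate numbers are shared between groups, but same-numbered deviations did not go together (r = -0.104). With 2 libraries per group, this cannot decide whether the libraries were prepared in pairs. With the replicate number as a block, 3 members had P of at most 0.05 and calls numbered 99 and 26. Crossing the numbers, an alternative chosen after seeing the data like the GC and length correction, gave 107 and 28 calls, with 1089 genes at an adjusted P under 0.05 in place of 10. A fit that leaves out a library assumes that the lone library varies like the other group. With TPM alone, no counting error can be given, which limits NOTCH4, DLL4, DLL1 and DLL3 most.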
